A study of Canis lupus familiaris with 26 samples.

Results

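The genes described here encode the extracellular matrix of the canine corpus luteum (CL) and the proteases that cut it. They are collagens, laminins, fibronectin and small leucine-rich proteoglycans, lysyl oxidases, matrix metalloproteases (MMPs), ADAMTS proteases and the inhibitor TIMP1. A gene was a member if its symbol, as listed in the study's supplementary lists of differentially expressed genes (DEGs), had the form of a collagen, laminin, MMP, TIMP, ADAMTS or lysyl oxidase name or was FN1, SPARC, OMD, DCN, LUM or FBN1. This rule gave 47 of the 19856 genes counted, with 8 fibrillar collagens, 10 other collagens, 6 laminins, 8 MMPs, 7 ADAMTS proteases, 1 TIMP, 3 lysyl oxidases and 4 glycoproteins and proteoglycans. SPARC and FBN1 are on neither list. Because the lists were made from these same libraries, the members were chosen by measured values, and each result below says whether its samples had entered that choice. Of the 47 members, 38 are on the time list, which compares days 20+30 with days 5+10 in control dogs (35 lower and 3 higher in the mature CL), and 11 of these are on a list of treatment effects too. The other 9 are on a treatment list only.

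RNA counts of CL tissue were available from 26 bitches of different ages, 13 control and 13 treated. The design text gives various breeds, whereas the study's methods describe the dogs as mixed-breed. Treated dogs were given 10 mg/kg of firocoxib (Previcox) by mouth daily from ovulation until the ovaries were removed. Firocoxib inhibits COX2 (PTGS2), the inducible enzyme that starts prostaglandin synthesis. Tissue came from day 5 (4 control and 4 treated dogs) and from days 10, 20 and 30 (3 control and 3 treated dogs each). From each group of days 10 and 30, the study had removed a sequenced dog as an outlier, judged from sample correlations and scatter plots. Each day is a different set of dogs, and p-values measure the spread between the dogs kept. On days 10 and 30 that spread, and the ranges below, leave out the removed dogs. Control dogs received a placebo according to the treatment protocol in the labels, while the design text of the series calls them untreated and counts an additional control group.

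The extracellular matrix is the protein meshwork around cells. Fibrillar collagens give it tensile strength, laminins and type IV collagen form the basement membranes under vessels and around steroidogenic cells, and fibronectin carries cells that migrate. MMPs and ADAMTS proteases cut these proteins and TIMPs inhibit the MMPs, so that tissue is both built and broken down when a ruptured follicle becomes a vascularized CL. In the dog the early CL (days 5 and 10) is still growing and does not depend on gonadotropins, whereas the CL of days 20 and 30 is mature and increasingly depends on them.

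Between 12831896 and 22658950 reads per library were counted on genes (median 17909941). Members took 2.52% to 3.63% of a library's counts in day 5 controls and 0.62% to 0.839% in day 30 controls. No library was a copy of another of its group (chi-square per degree of freedom between 46.59 and 580.7 over 30 pairs). Luteal steroidogenic genes were read in every library (LHCGR, PRLR, CYP19A1 and NR5A2, the 4 of 10 with an identifier). Their summed level was 242 to 3060 CPM (reads scaled to library size) over the 26 libraries. The tissue label was checked on these 4 only. In bulk tissue, fewer cells of a type and less RNA per cell cannot be told apart.

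Some treated libraries stood apart from the rest. Day 5 replicate 1, day 10 replicate 1 and day 20 replicate 2 deviated from their group means in the same way, with correlations of 0.674 to 0.819 across 14171 genes, whereas other pairs of libraries from different groups had correlations of -0.556 to 0.605. They were chosen for this after the values were seen. All 3 held the lowest value of their day's treated dogs for 8 members (ADAMTS5, LOX, MMP12, COL24A1, DCN, LUM, OMD and COL12A1) and the highest for 10 (ADAMTS14, LOXL1, MMP14, TIMP1, LAMB2, LAMC3, COL16A1, COL22A1, COL6A1 and COL6A2). These were 17.4% and 21.7% of the 46 members with values in the comparison, against 32.7% and 30.7% of all genes. For comparisons that hold these libraries, a count or median of the members is therefore given without them as well. Values of single genes, steps between successive days, ratios and other gene lists are given with them only. What sets these libraries apart was not tested.

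In control dogs, 30 of the 38 time-list members passed both thresholds (P-value under 0.01 and FDR under 0.1 in the quasi-likelihood test of edgeR, adjusted over all genes) as lower on days 20+30 and 2 as higher. Over all genes, 10.4% were called lower and 10.1% higher. The median log2 fold change of the 38 was -1.51. These values describe how the members were chosen and carry no test. The members closest to the edge of the list were COL12A1 (log2 fold change -1.30) and ADAMTS5 (-1.04), which are on the study's list and missed the P-value threshold here. The genes just outside the list carry no symbol. In controls 6 members had every day 20 and 30 library below every day 5 and 10 library (TIMP1, ADAMTS14, MMP2, MMP28, COL6A1 and COL8A2), and over all genes 2.47% did so.

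Treated dogs had no part in the time list, so days 20+30 over days 5+10 within treated dogs is a separate measurement of the 38 genes. Of these 38, 33 were lower and 5 higher in the mature CL, with a median log2 fold change of -1.11 against -0.0025 for all genes. Both thresholds were passed by 7 of the 38 as lower (TIMP1, ADAMTS14, ADAMTS17, MMP1, COL6A1, COL6A2 and LOXL2) and by 1 as higher (LAMA1). The share called lower over all genes was 3.11%, and the share called higher was 1.54%. An unadjusted P-value under 0.05 was reached by 17 of the 38 (19.6% of all genes). Without the 3 libraries that stood apart, 11 of the 38 passed, 10 of them lower (7.27% of all genes), with MMP23B, LUM and MMP28 added to the 8 above. With DESeq2, 13 passed as lower (7.75% of all genes) and LAMA1 as higher. Leaving out 1 treated dog at a time changed the count. It was 3 without any of day 5 replicates 1 and 2, day 20 replicate 4 or day 30 replicates 2, 4 and 5, 4 without day 5 replicate 5 or day 20 replicate 3, 5 without day 5 replicate 4, and 13 without day 20 replicate 2. The count over all genes changed too, from 151 without day 30 replicate 5 to 1989 without day 20 replicate 2 (639 with all dogs). TIMP1, ADAMTS14 and LAMA1 passed in all 13 of these fits, ADAMTS17 in 7, MMP1 and COL6A2 in 4, and COL6A1 and LOXL2 in 3.

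**Figure D1:**
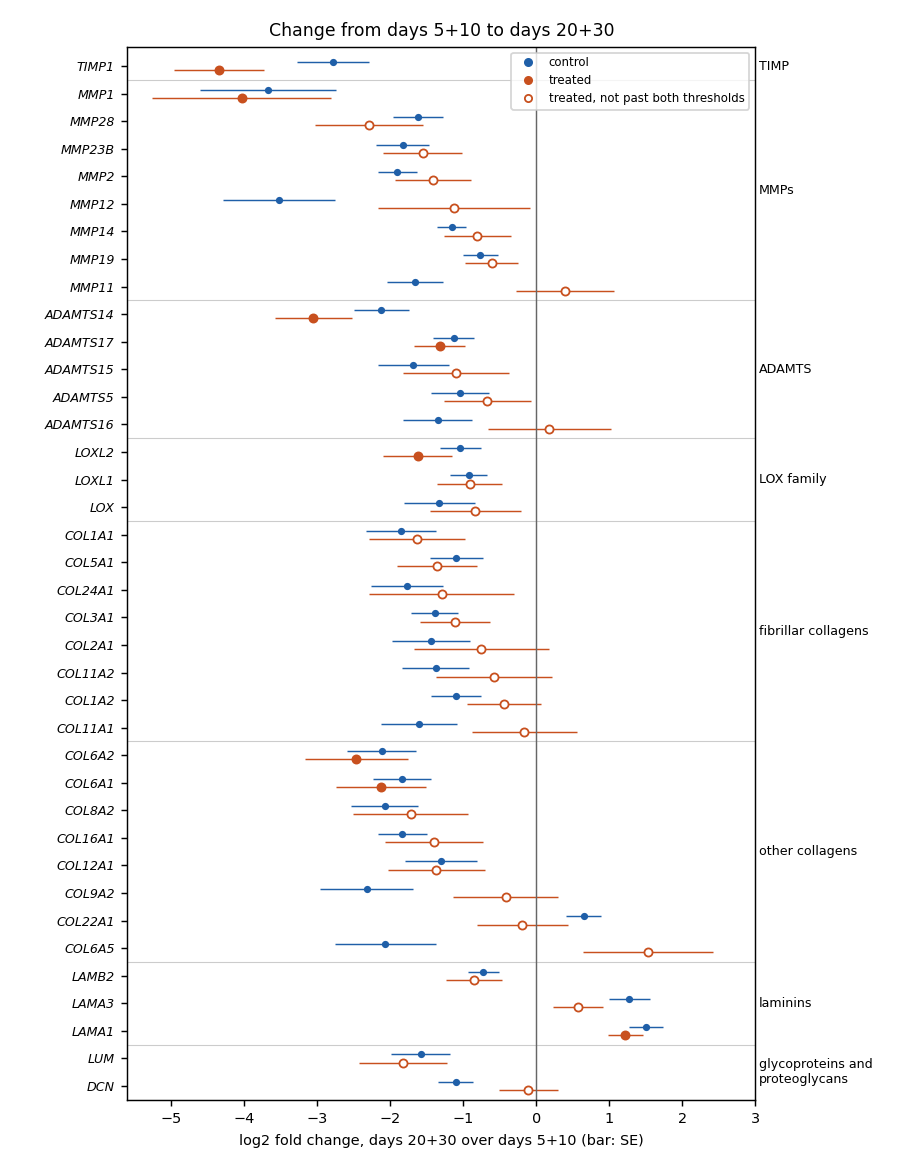
Log2 fold change of days 20+30 over days 5+10 for the 38 members of the time list (x axis), grouped by role, in control dogs (blue, the contrast that chose the members) and treated dogs (orange), with bars for the standard error. Filled orange points passed both thresholds in treated dogs, with TIMP1 at -4.35 as the lowest value and LAMA1 at 1.22 as the only called increase.

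TIMP1 (ENSCAFG00000015155), the secreted inhibitor of most MMPs, had 6523 CPM at the lowest, 9296 at the median and 24714 at the highest of the 7 treated libraries of days 5 and 10. The treated libraries of day 20 had 1222, 92.5 and 882 CPM and those of day 30 had 653, 484 and 199 CPM. The stages did not overlap, and the log2 fold change was -4.35 ± 0.61 (SE, FDR = 0.00424). Over all genes, 0.946% had every late treated library below every early treated library. Controls had 4908, 9170 and 12557 CPM early and 378, 1076 and 3842 CPM late (log2 fold change -2.78 ± 0.49). Most of the difference lay between days 10 and 20. TIMP1 took 47.8% to 58.4% of all member counts in day 10 controls and 8.23% to 30.7% in day 20 controls, so the summed member level of the day 10 CL was in large part that of TIMP1.

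Of the 8 MMPs, 7 were lower in the mature CL of treated dogs, and the median was -1.27 on the log2 scale. MMP1 passed both thresholds. MMP1, an interstitial collagenase, had 0, 4.81 and 61.4 CPM at the lowest, median and highest of the early treated libraries and 0.291, 0.547 and 2.99 CPM late (log2 fold change -4.04 ± 1.22, FDR = 0.099). The stages overlapped, since day 10 replicate 1 had no read of MMP1. MMP28 (epilysin) had 1.12, 3.75 and 10.8 CPM early and 0.116, 0.535 and 3.17 CPM late, and at -2.29 ± 0.74 (FDR = 0.118) it missed the FDR threshold. MMP23B had 5.16, 16.6 and 73.9 CPM early and 3.13, 8.23 and 18.1 CPM late (-1.56 ± 0.54, FDR = 0.14). MMP2, the gelatinase that cuts type IV collagen and the MMP with the most reads, had 318, 459 and 1699 CPM early and 58.9, 217 and 483 CPM late (-1.42 ± 0.52, FDR = 0.159). Its late treated values fell into separate days, with 312 to 483 CPM on day 20 and 58.9 to 122 CPM on day 30. MMP11 (stromelysin-3), lower late in controls, was the MMP on the higher side in treated dogs (0.40 ± 0.67, FDR = 0.744), with a highest value of 59 CPM on day 20.

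ADAMTS14, which trims the N-terminal propeptide from fibrillar procollagens, had 3.21, 9.86 and 14.7 CPM in early and 0.141, 0.948 and 2.15 CPM in late treated libraries, again without overlap (log2 fold change -3.06 ± 0.53, FDR = 0.0118). ADAMTS17 had 25.1, 34.4 and 65 CPM early and 6.61, 14.8 and 27.4 CPM late, where the ranges met (-1.32 ± 0.35, FDR = 0.0654). ADAMTS15, a proteoglycan-cleaving member of the family, had 0.641, 2.39 and 11.5 CPM early and 0.116, 1.57 and 2.94 CPM late (-1.10 ± 0.73, FDR = 0.406), and ADAMTS5 and ADAMTS16 also missed the thresholds. Lysyl oxidases crosslink collagen and elastin. LOXL2 passed, with 27.4, 60.3 and 124 CPM early and 7.06, 19.7 and 50.7 CPM late (-1.62 ± 0.47, FDR = 0.0896). LOXL1 had 11.5, 30 and 63.3 CPM early and 6.72, 14.5 and 36.8 CPM late (-0.91 ± 0.45, FDR = 0.27). LOX had 5.25, 72.1 and 162 CPM early and 9.63, 30.5 and 78.9 CPM late (-0.83 ± 0.62, FDR = 0.454), so the stages overlapped for all 3.

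All 8 fibrillar collagens were lower in the mature CL of treated dogs, with a median of -0.94 on the log2 scale, and none passed both thresholds in edgeR (3 had an unadjusted P-value under 0.05, and COL1A1 and COL5A1 passed with DESeq2). COL1A1, the alpha-1 chain of type I collagen, had 661, 2699 and 6429 CPM at the lowest, median and highest of the early and 138, 782 and 2218 CPM of the late treated libraries (-1.63 ± 0.66, FDR = 0.192). COL3A1, the chain of type III collagen, had 1585, 3380 and 6977 CPM early and 449, 1580 and 3854 CPM late (-1.12 ± 0.48, FDR = 0.216). COL1A2, the partner chain of COL1A1, had 1503, 3853 and 10510 CPM early and 965, 3857 and 6697 CPM late (-0.44 ± 0.51, FDR = 0.626), and its late values split by day into 5228 to 6697 CPM on day 20 and 965 to 2485 CPM on day 30. COL5A1, a type V chain found within type I fibrils, had 63.2, 176 and 429 CPM early and 15.4, 67.9 and 167 CPM late (-1.36 ± 0.55, FDR = 0.195). With days 5, 10 and 30 only, an alternative added after the values were seen, COL1A1, COL2A1, COL3A1 and COL5A1 passed, and 17 of the 38 members did so in all (8.24% of all genes).

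Type VI collagen forms beaded filaments close to cells. COL6A1 and COL6A2, which lie next to each other in the RefSeq annotation with no protein-coding gene between them, fell together in treated dogs. COL6A1 had 163, 616 and 1700 CPM early and 35.7, 129 and 346 CPM late (-2.12 ± 0.62, FDR = 0.0886). COL6A2 had 22.1, 119 and 286 CPM early and 3.36, 16.2 and 53.4 CPM late (-2.46 ± 0.70, FDR = 0.0852). COL6A5 differed from them. It was lower late in controls (-2.07 ± 0.69) and had 1.53 ± 0.89 (FDR = 0.341) in treated dogs, whose early libraries held 0.733 to 12.1 CPM against 4 to 98 CPM in controls. COL8A2, a short-chain collagen of endothelial basement membranes, had 0.367, 1.14 and 5.77 CPM early and 0, 0.385 and 1.49 CPM late (-1.72 ± 0.79, FDR = 0.243). COL12A1, which binds to the surface of type I fibrils, had 68.5, 399 and 1704 CPM early and 53.5, 123 and 435 CPM late (-1.37 ± 0.67, FDR = 0.27).

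Of the 3 time-list laminins, LAMA1 and LAMA3 were higher and LAMB2 lower in the mature CL. LAMA1, the alpha-1 chain, had 97.6, 122 and 153 CPM in early and 190.0, 283 and 387 CPM in late treated libraries, without overlap (log2 fold change 1.22 ± 0.24, FDR = 0.0177), and 0.313% of all genes had every late treated library above every early treated library. Controls had 70.3, 105 and 179 CPM early and 256, 321 and 444 CPM late. LAMA3, the alpha-3 chain, had 2.99, 6.66 and 10.6 CPM early and 6.19, 10.8 and 14 CPM late in treated dogs (0.57 ± 0.34, FDR = 0.357), with control medians of 9.61 and 19.8 CPM. LAMB2, a beta chain of vascular basement membranes, had 174, 241 and 737 CPM early and 98.3, 171 and 316 CPM late (-0.85 ± 0.38, FDR = 0.238).

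Decorin (DCN) and lumican (LUM) are small leucine-rich proteoglycans that bind collagen fibrils, and their genes adjoin each other. LUM had 89.5, 791 and 1710 CPM in early and 48.4, 256 and 391 CPM in late treated libraries (-1.82 ± 0.61, FDR = 0.128). DCN had 297, 675 and 1417 CPM early and 406, 562 and 1573 CPM late (-0.11 ± 0.41, FDR = 0.89). In controls both were on the lower side, with -1.58 ± 0.40 for LUM and -1.10 ± 0.24 for DCN.

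**Figure D2:**
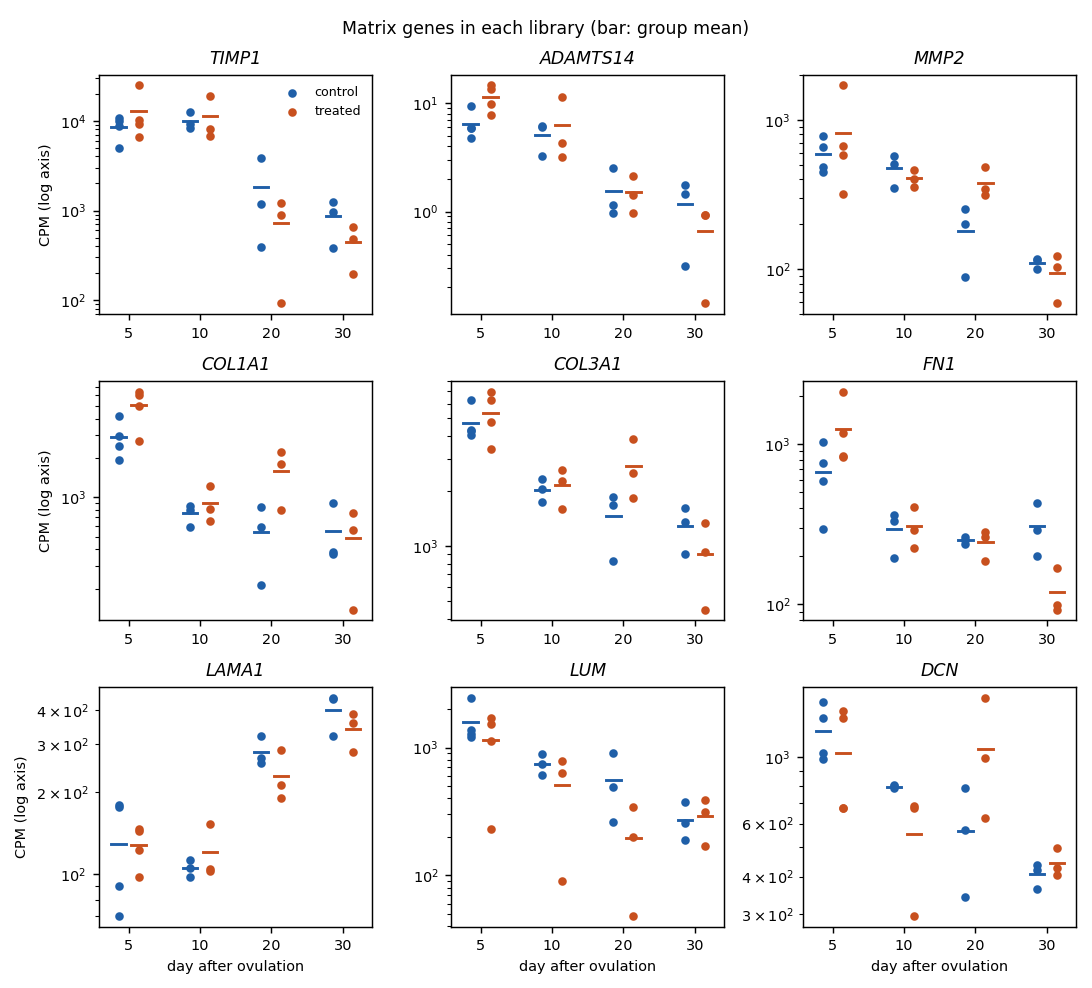
CPM (log axis) of 9 members in each library, by day after ovulation, for control (blue) and treated (orange) dogs, with a bar at each group mean. TIMP1 and ADAMTS14 separate days 5 and 10 from days 20 and 30 in both series of dogs, LAMA1 does so in the other direction, and treated day 20 libraries reach 2218 CPM for COL1A1 and 1573 CPM for DCN.

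The members did not reach their lower level at the same time. Of the 35 members lower at days 20+30 in controls, the largest drop between mean log2 CPM values of successive days lay between days 10 and 20 for 22, between days 5 and 10 for 11 and between days 20 and 30 for 2. In treated dogs it lay between days 20 and 30 for 20, between days 5 and 10 for 11 and between days 10 and 20 for 4. The families differed in the same respect. For the 8 fibrillar collagens the median steps in controls were -1.25, -0.40 and -0.13, and in treated dogs -1.37, 0.69 and -1.73. For the 8 MMPs they were -0.14, -1.59 and 0.15 in controls and -0.83, 0.07 and -1.56 in treated dogs. For TIMP1 the step from day 10 to day 20 was the largest in both, with -3.01 in controls and -4.45 in treated dogs.

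**Figure D3:**
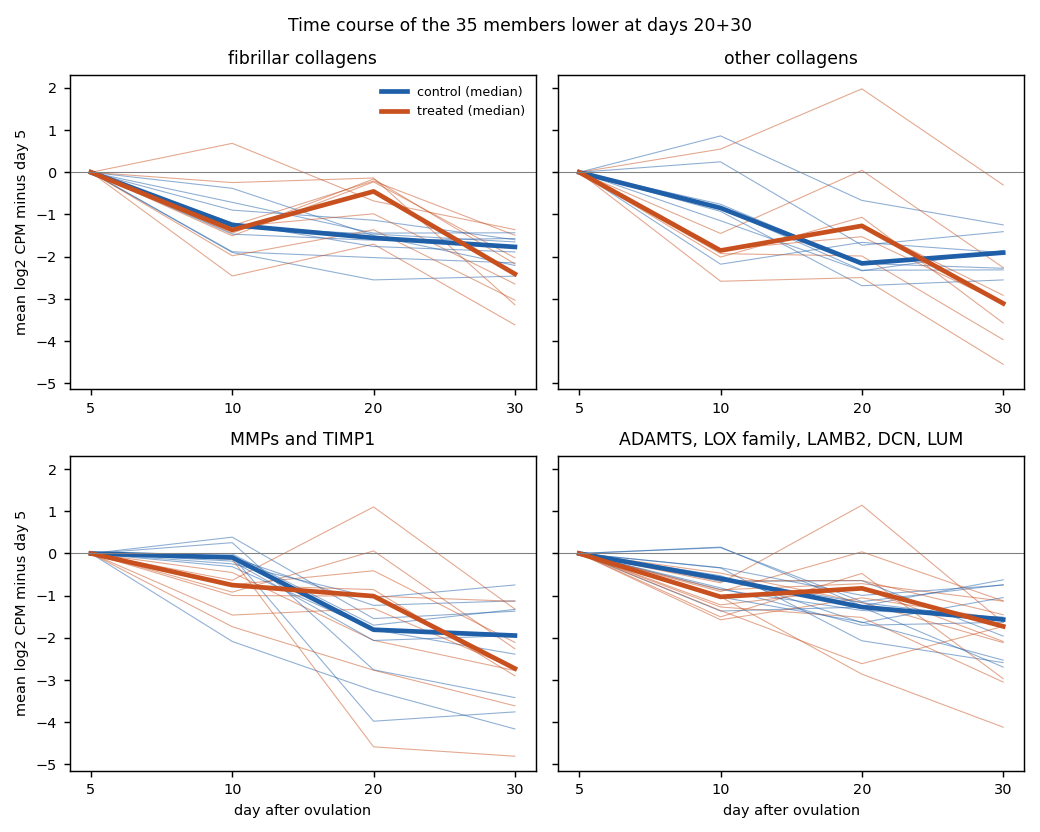
Mean log2 CPM of each day minus that of day 5 (y axis) against day after ovulation for the 35 members lower at days 20+30, with thin lines for single genes and thick lines for the median of a panel, in control (blue) and treated (orange) dogs. The median step of the fibrillar collagens from day 10 to day 20 is -0.40 in controls and 0.69 in treated dogs, and the next step is -0.13 and -1.73.

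Day 10 was compared with day 5, and day 30 with day 20, in fits of the 13 dogs of each treatment. In controls, 30 of the 38 time-list members were lower on day 10 than on day 5, and 13 had an unadjusted P-value under 0.05 (6.86% of all genes). None passed both thresholds, as none of all genes did (0%). With DESeq2, COL12A1, COL1A1, COL5A1, COL1A2 and COL3A1 passed as lower (0.94% of all genes in either direction). The smallest P-values in edgeR were those of COL12A1 (-2.32 ± 0.40), COL5A1 (-1.52 ± 0.35) and COL1A1 (-1.96 ± 0.46). These controls are the libraries of the time list, so the values are a description. In treated dogs, 34 of the 38 were lower on day 10, 16 had an unadjusted P-value under 0.05 (5.12% of all genes) and again none passed both (0% of all genes). With DESeq2, COL16A1, COL1A1, COL5A1, COL6A1, COL6A2 and FN1 passed (0.356% of all genes). Without the 3 libraries that stood apart, no member passed, and each of these days lacked a treated dog. Of all 47 members, 15 then had an unadjusted P-value under 0.05 (14.1% of all genes), against 19 with all libraries.

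COL1A1 shows this early change in each library. Day 5 controls had 4145, 1930, 2959 and 2486 CPM and day 10 controls 801, 860.2 and 593 CPM. Treated dogs had 6429, 4975, 6048 and 2699 CPM on day 5 and 661, 1222 and 815 CPM on day 10. The days did not overlap in either series of dogs. COL6A2 had the smallest P-value of the treated day 10 over day 5 comparison (-2.66 ± 0.55, FDR = 0.898), with 286, 124, 152 and 119 CPM on day 5 and 34.8, 24.1 and 22.1 CPM on day 10.

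On day 30 compared with day 20, 21 of the 38 were lower in controls and 3 had an unadjusted P-value under 0.05 (LOX, ADAMTS5 and LUM, against 8.66% of all genes), with none past both thresholds (0% of all genes). In treated dogs 34 of the 38 were lower and 20 had an unadjusted P-value under 0.05 (9.93% of all genes), again with none past both (0% of all genes). With DESeq2, 12 of all 47 members passed (2.58% of all genes). The 47 take in the 9 members on a treatment list only, whose lists used treated dogs of day 20 or day 30. Without the 3 libraries that stood apart, day 20 held 2 treated dogs. In that fit 8 time-list members passed with edgeR (MMP2, COL16A1, MMP14, COL9A2, DCN, COL2A1, ADAMTS16 and MMP11), together with LAMA4 (2.82% of all genes). LAMA4 is a member through the day 30 treatment list, which the day 30 treated dogs entered, so its value is a description. Day 30 treated dogs had 2 counts of COL2A1 in all, so no fold is given for it. COL16A1, a fibril-associated collagen, had 124, 79.2 and 66.4 CPM in day 20 treated libraries and 20, 19.4 and 8.98 CPM on day 30 (-2.47 ± 0.55, FDR = 0.345). MMP14, the membrane-bound activator of MMP2, had 273, 198 and 135 CPM on day 20 and 76.4, 67.1 and 41.4 CPM on day 30 (-1.70 ± 0.49, FDR = 0.345).

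Treated and control dogs were then compared on each day. For time-list members the control dogs also entered the choice of the gene, and for the 9 others the day of their list did, so values on those days are descriptive. The comparisons use separate dogs. On day 5, 33 of the 47 members were higher in treated dogs, with a median of 0.71 on the log2 scale, and none of the members or of all genes passed both thresholds (0%). An unadjusted P-value under 0.05 was seen for 12 (11.8% of all genes), of which 11 were higher. With DESeq2, MMP28, LOXL1 and COL6A2 passed as higher and COL6A5 as lower (0.733% of all genes in either direction). Without day 5 treated replicate 1, the median was 0.20. COL6A1, COL6A2, LOXL1 and MMP28 had every treated library above every control (5.16% of all genes). MMP28 had 1.42, 1.67, 1.61 and 1.84 CPM in controls and 5.56, 3.75, 10.8 and 4.56 CPM in treated dogs (1.90 ± 0.43). The summed level of 7 pericyte and smooth muscle markers was 921 to 2913 CPM in these treated dogs and 451 to 642 CPM in controls. Of these markers, ACTA2 and CNN1 are on the study's list of genes higher on day 5, so the sum is a description. Its part in the result was not tested.

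On day 10, 45 members were tested, 26 higher and 19 lower, with a median of 0.05 (-0.10 without day 10 treated replicate 1). None passed both thresholds (0% of all genes), and 1 had an unadjusted P-value under 0.05 (0.902% of all genes). It was COL6A5, with 22.1, 9.63 and 71 CPM in controls and 0.733, 12.1 and 8.28 CPM in treated dogs (-2.26 ± 0.95), where the groups overlapped. DCN had every treated library below every control (2.82% of all genes), with 297, 688 and 675 CPM in treated and 798, 806 and 786 CPM in control libraries.

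On day 20, 39 of the 47 members were higher in treated dogs and 8 lower, with a median log2 fold change of 1.16 against 0.11 for all genes. Every treated library lay above every control library for 19 of the 47 members and for 16.1% of all genes. For LAMA3 every treated library lay below, as it did for 1951 of the 13726 genes tested. None of the members passed both thresholds (0.102% of all genes did), while 20 had an unadjusted P-value under 0.05, all of them higher (17% of all genes in either direction). The result depended on the test and on 1 library. With DESeq2, 13 members passed as higher (7.15% of all genes). Without treated replicate 2, a fit that holds 2 treated dogs, 13 passed as higher with edgeR (5.67% of all genes). The study's list of genes higher on day 20 was made from these libraries with DESeq2 and holds 15 members. These counts are therefore a description. In simulated data with 200 genes changed by a log2 fold change of 2 among 13726, edgeR's test recovered 8 on this day with 1 false call, and DESeq2 recovered 105 with 72 false calls. Only genes with more reads were changed, so these numbers do not carry over to members with few reads. Each gene was drawn independently, whereas treated replicate 2 deviated over many genes together, so the numbers need not hold for these libraries.

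**Figure D4:**
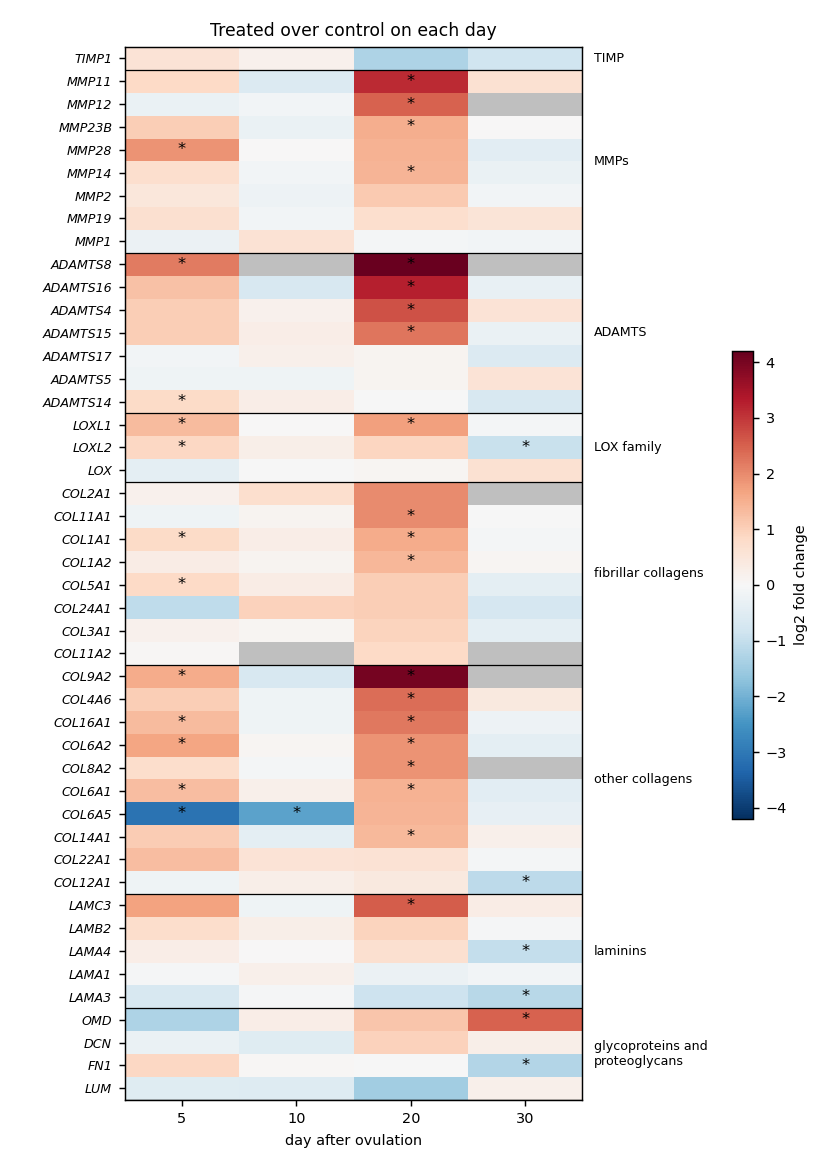
Log2 fold change of treated over control dogs for 46 of the 47 members (rows, by role) on each day (columns), red for higher and blue for lower in treated dogs and gray where the gene was not tested. Asterisks mark an unadjusted P-value under 0.05, which 20 members reached on day 20, all higher, and 12, 1 and 6 on days 5, 10 and 30.

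On day 20 the sums of some marker lists lay apart in treated and control libraries, and those of other lists overlapped. A marker had an identifier only if it is on the study's DEG lists. The 5 oocyte genes with an identifier (ZP2, ZP3, ZP4, GDF9 and BMP15, of 7 listed) summed to 148 to 258 CPM in treated and 4.57 to 9.14 CPM in control libraries. All 5 are on the study's list of genes higher after treatment on day 20, made from these libraries. Their difference is therefore a description and carries no test, though all but ZP2 passed both thresholds as higher. ZP4 had no read in the day 20 controls, and ZP3 had 1. The 6 fibroblast and stroma markers summed to 285 to 380 CPM in treated libraries and at most 238 CPM in control libraries, and the 4 luteal steroidogenic genes to 407 to 1481 CPM in treated and 1414 to 3009 CPM in control libraries. Pericyte and smooth muscle markers summed to 460 to 1180 CPM and 485 to 634 CPM, the granulosa genes FSHR and INHA to 283 to 808 CPM and 1736 to 2482 CPM, and the 4 endothelial genes to 245 to 1304 CPM and 886 to 1126 CPM. Of the immune list, CD68 alone had an identifier, with 1.82 to 7.03 CPM in treated and 0.305 to 2.16 CPM in control libraries. Some genes in the other sums are on the day 20 treatment lists too, such as PDGFRA, DPT, TCF21, NR5A2 and FSHR, so those sums are descriptions as well. The part of these cells in the values of the matrix genes was not tested.

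The day 20 difference was seen in proteases and in structural genes. MMP11 had 29.6, 59 and 14.7 CPM in treated and 2.76, 1.83 and 7.37 CPM in control libraries (3.13 ± 0.73). MMP2 had 483, 312 and 345 CPM against 89.1, 199 and 252 CPM (1.10 ± 0.49). All treated libraries exceeded the controls for both. COL1A2 had 6476, 5228 and 6697 CPM in treated and 1188, 3239 and 2719 CPM in control libraries, without overlap (1.40 ± 0.53). COL1A1 had 2218, 799 and 1784 CPM against 215, 588 and 836 CPM, with an overlap between treated replicate 3 and control replicate 3 (1.57 ± 0.64). COL9A2, a fibril-associated collagen of cartilage counted at low levels here, had 0.861, 1.3 and 1.72 CPM in treated and 0.0601, 0 and 0.158 CPM in control libraries. TIMP1 was among the 8 members on the lower side, with 1222, 92.5 and 882 CPM in treated and 391, 1190 and 3842 CPM in control libraries (-1.30 ± 1.03), and the groups overlapped. ADAMTS14 and ADAMTS17, whose levels fell with maturation in treated dogs, had values close to control on day 20 (-0.02 ± 0.63 and 0.13 ± 0.43).

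Of the 9 members on a treatment list only, 5 are listed as higher on day 20. COL4A6, a type IV chain of basement membranes, had 47.1, 56.5 and 37.7 CPM in treated and 9.98, 6.7 and 11.7 CPM in control libraries. ADAMTS4, an aggrecanase, had 36.4, 42 and 52.6 CPM against 4.21, 6.34 and 10.6 CPM. LAMC3, the gamma-3 laminin chain, had 183, 107 and 157 CPM against 16, 14.1 and 47.5 CPM. For these and ADAMTS8 the groups did not overlap. ADAMTS8, an antiangiogenic protease gene that adjoins ADAMTS15, had 0.807, 0.915 and 0.557 CPM in treated dogs and at most 0.105 CPM in controls, so no fold is given. COL14A1, which binds decorin and collagen fibrils, had 99.3, 330.1 and 219 CPM against 53.1, 73.2 and 136 CPM, where the groups overlapped. On the other days, which did not choose these genes, the treatment log2 fold change of COL4A6 was 1.02 ± 0.73 (FDR = 0.469) on day 5, -0.19 ± 0.58 (FDR = 1) on day 10 and 0.39 ± 0.31 (FDR = 0.793) on day 30. For ADAMTS4 it was 1.02 ± 0.47 (FDR = 0.412), 0.20 ± 0.49 (FDR = 1) and 0.58 ± 0.77 (FDR = 0.905), and for LAMC3 1.69 ± 0.83 (FDR = 0.415), -0.18 ± 0.46 (FDR = 1) and 0.30 ± 0.47 (FDR = 0.93). For COL14A1 it was 1.06 ± 0.80 (FDR = 0.489), -0.42 ± 0.37 (FDR = 1) and 0.20 ± 0.28 (FDR = 0.912). None of these passed. From day 5 to day 10, which chose none of the 9 genes, 5 of the 8 tested were lower in controls and 7 of 9 in treated dogs, with none past both thresholds.

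On day 30, 41 members were tested, 14 higher and 27 lower in treated dogs, none past both thresholds (0% of all genes) and 6 with an unadjusted P-value under 0.05 (8.14% of all genes). With DESeq2, OMD passed as higher and FN1 as lower, both on the study's list for this day (0.879% of all genes in either direction). FN1, LAMA3, LAMA4 and LOXL2 had every treated library below every control (9.11% of all genes), as did COL2A1, which had too few reads to be tested. ADAMTS5 and OMD had every treated library above, as did 761 of the 13196 genes tested. OMD (osteomodulin), a small proteoglycan, is listed as higher on this day, with 18.5, 16.2 and 26.7 CPM in treated and 2.3, 3.13 and 6.54 CPM in control libraries (2.48 ± 0.44). In controls OMD was lower on day 30 than on day 20 (-2.36 ± 0.74), where it had 14.8, 31.8 and 14.2 CPM, while treated dogs had 1.72, 61.5 and 67.5 CPM on day 20. On the days that did not choose it, the treatment log2 fold change of OMD was -1.29 ± 0.66 (FDR = 0.415) on day 5, 0.26 ± 1.08 (FDR = 1) on day 10 and 1.16 ± 1.02 (FDR = 0.551) on day 20.

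FN1 (fibronectin) is listed as lower on day 30, with 169, 98.7 and 92.8 CPM in treated and 201, 427 and 292 CPM in control libraries (-1.23 ± 0.35). Its level on day 10 against day 5 did not enter any list. It was lower on day 10 in controls, where 589.6, 1029, 760.5 and 295 CPM on day 5 compare with 195, 364 and 330.3 CPM on day 10 (-1.21 ± 0.39, FDR = 0.562). In treated dogs 830.2, 2129, 848 and 1180 CPM on day 5 compare with 292, 223 and 406 CPM on day 10 (-2.02 ± 0.43, FDR = 0.898). The days overlapped in controls and not in treated dogs, and only DESeq2, in treated dogs, called the difference. Over days 20+30 against days 5+10 in treated dogs, FN1 had 223, 830.2 and 2129 CPM at the lowest, median and highest early and 92.8, 178 and 281 CPM late, with some overlap. Its log2 fold change of -2.20 ± 0.51 passed both thresholds, also in 10 of the 13 fits that left out 1 dog, but the treated dogs of day 30 entered its list, so the value is a description. On day 20 FN1 did not follow the collagens, with 263, 187 and 281 CPM in treated and 237, 252 and 265 CPM in control libraries (-0.01 ± 0.38, FDR = 0.987). LAMA4, the alpha-4 chain of endothelial basement membranes, is listed as lower on day 30, with 149, 72.6 and 87.5 CPM in treated and 174, 246 and 251 CPM in control libraries, without overlap. On days 5 and 20 its treatment log2 fold change was 0.29 ± 0.35 (FDR = 0.629) and 0.67 ± 0.45 (FDR = 0.459). The 4 endothelial markers with an identifier (PECAM1, CDH5, VWF and KDR) summed to 506 to 1008 CPM in day 30 treated and 1415 to 1721 CPM in control libraries. All 4 are on the study's list of genes lower on day 30, made from these libraries, so the lower sum is a description. Their part in the LAMA4 value was not tested.

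Ratios of counts within a library do not depend on its scaling, though they mix gene lengths, so only their change between libraries is read. On day 20, COL1A1 over TIMP1 had log2 ratios of 0.86, 1.02 and 3.11 in treated and -2.20, -1.02 and -0.87 in control libraries. MMP2 over TIMP1 had -1.35, -1.34 and 1.76 in treated and -3.93, -2.58 and -2.14 in control libraries. DCN over LUM had 1.54, 2.98 and 3.69 in treated and -0.21, 0.21 and 0.38 in control libraries. The groups did not overlap for these 3 pairs on day 20. MMP14 over TIMP1 had -2.71, -2.16 and 1.10 in treated and -5.13, -4.35 and -2.63 in control libraries, and here the groups overlapped. On days 5, 10 and 30 they overlapped for all 4 pairs. COL1A1 over TIMP1 was lowest on day 10, from -4.40 to -3.36 in controls and from -4.84 to -2.71 in treated dogs.

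**Figure D5:**
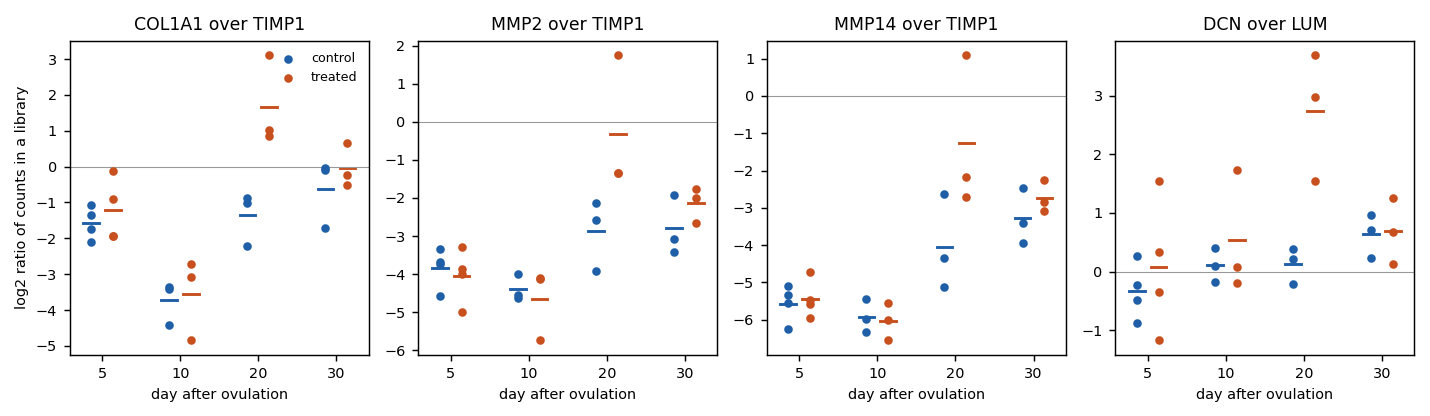
Log2 ratio of the counts of a pair of genes within each library (y axis) by day after ovulation, for control (blue) and treated (orange) dogs, with a bar at the group mean. The day 20 treated libraries lie above the day 20 controls for 3 of the 4 pairs, with MMP14 over TIMP1 as the exception and DCN over LUM between 1.54 and 3.69 against -0.21 to 0.38.

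Other matrix genes were described from lists that could hold only genes with a symbol on the study's own DEG lists, so their direction is not independent of that choice. In treated dogs all 11 collagen maturation enzymes were lower on days 20+30, with a median of -0.99, and 3 fell (3.11% of all genes were called lower). They were PLOD3 (-1.54, FDR = 0.0405) and P4HA2 (-1.15, FDR = 0.089), hydroxylases of procollagen lysine and proline, and PCOLCE (-2.04, FDR = 0.0526), which enhances removal of the procollagen C-propeptide. Of 20 other glycoproteins and proteoglycans, 16 were lower (median -1.18) and MFAP4 passed as lower (-3.06, FDR = 0.062). All 4 genes of the plasminogen system, which activates MMPs, were lower (median -1.07), and PLAU passed (-1.05, FDR = 0.089). All 8 matrix receptors were lower (median -1.03), and ITGA5, the alpha chain of the fibronectin receptor, passed (-2.19, FDR = 0.023). Of 4 TGF-beta genes, 2 were lower and none passed. On day 20, 20 of the 20 other glycoproteins were higher in treated dogs (median 1.44) and 8 had an unadjusted P-value under 0.05 (17% of all genes). For maturation enzymes 10 of 11 were higher (median 0.56), for plasminogen genes 4 of 4 (median 1.39), for TGF-beta genes 3 of 4 (median 1.90) and for matrix receptors 4 of 8 (median -0.15). No gene of these 5 lists passed both thresholds on that day.

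Members that overlap or resemble each other carry some uncertainty. The strand was not stated for the counting, so reads of a gene and of an overlapping or antisense neighbor cannot be told apart. In the RefSeq annotation of another assembly, 46 of the 47 members were found. LUM and DCN, COL6A1 and COL6A2, and ADAMTS15 and ADAMTS8 were direct neighbors there, and MMP12 and MMP1 had 1 gene between them. The ratio of COL6A2 to COL6A1 counts stayed within -3.55 and -2.31 on the log2 scale in all 26 libraries, and it was higher in all 4 treated than in all 4 control libraries of day 5 (-2.57 to -2.31 against -3.18 to -2.62).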

How the data were processed

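Poly-A selected RNA of CL samples was sequenced, and the authors deposited read counts of 26 samples per Ensembl gene, without normalization or a filter. STAR, featureCounts and CanFam3.1 are named in the submitters' processing notes. Groups came from the labels. The members and gene lists were chosen with earlier results of these data known. Counts were analyzed in R 4.3.3 with edgeR 4.0.16 (TMM factors, quasi-likelihood test, Benjamini-Hochberg over all genes tested) keeping any gene whose average reached 10 reads in 1 or more groups of the comparison. A gene was called at a P-value under 0.01 and an FDR under 0.1. Stage and treatment contrasts used the samples compared, and day contrasts the 13 samples of a treatment with days as 4 groups. SE was derived from the F statistic. Log2 CPM for daily means used a prior count of 2.

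Alternatives were DESeq2 1.42.0, RLE factors, no filter, other groupings of samples, omission of each sample and the replicate number as a block. Days 5, 10 and 30 only, and the omission of 3 libraries, were added after the data were examined. Full values were given for the 3 members of each role with the smallest P-value in treated dogs, members past both thresholds, members on a treatment list only, and the most counted member of each role. Further members were named after their values were seen. Other genes of the same families could not be listed, since identifiers off the study's lists carry no symbol. CPM used TMM-scaled library sizes. The values of 1 member are not reported here, and it is in the counts only. Fold and p-value columns of the deposited study lists were not used. Tested on simulated counts with 200 genes changed by a log2 fold change of 2, edgeR recovered 165 for treated days 20+30 over 5+10, 129 for day 5, 8 for day 20 and 150 for day 30 treatment. DESeq2 recovered 187, 165, 105 and 179. Genes with few reads were not among those changed, and each gene was drawn independently of the others. False calls in the same order were 9, 17, 1 and 19 in edgeR and 66, 76, 72 and 77 in DESeq2.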

Additional observations from a re-analysis of the deposited data

Results flagged for a closer look

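In groups of 4, a library was noted where its gap to the nearest of the others took over 0.829 of the group's range. For independent, normally distributed values chance does this in about 1 in 20 groups. Among 66 such groups (33 members, day 5 controls and day 5 treated dogs) this held for 10. The rate was not checked for CPM and the groups share libraries, so it does not measure how unusual the 10 are. Day 5 control replicate 1 stood high for 5 members, with 67.1 CPM for ADAMTS17 (next 41.1), 6295 CPM for COL3A1 (next 4302), 3.14 CPM for COL8A2 (next 1.38), 21.7 CPM for LOXL1 (next 15.4) and 65.2 CPM for LOXL2 (next 43.7). Day 5 control replicate 3 had 2462 CPM for LUM (next 1382).

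Among day 5 treated dogs, replicate 1 had 1700 CPM for COL6A1 (next 751), replicate 2 had 1704 CPM for COL12A1 (next 451), and replicate 4 had 489 CPM for COL14A1 (next 104) and 17.5 CPM for OMD (next 5.19). Replicate 1 is among the 3 treated libraries that stood apart over all genes, and the others are not.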

How the results depend on the processing

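Counts of members past both thresholds depended on the test and on single dogs. Those of treated maturation (days 20+30 over 5+10) are of the 38 time-list members and the others of all 47. With DESeq2 they were 14 for treated maturation (8 in edgeR), 5 for control day 10 over 5 (0), 6 for treated day 10 over 5 (0), 12 for treated day 30 over 20 (0), and 4, 13 and 2 for treatment on days 5, 20 and 30 (0 each). On day 20, RLE factors gave 2, no filter 2 and all 26 samples in 1 fit 13. Over all genes these settings called 95 of 13726, 109 of 16970 and 1559 of 14171. Leaving out 1 dog at a time gave 3 to 13 in treated maturation, 0 to 1 in control day 10 over 5 (1 without day 5 control replicate 5), 0 to 13 for treatment on day 20 (13 without treated replicate 2) and 24 to 34 in control maturation (32 with all dogs). Counts over all genes moved with the same fits. They ran from 151 to 1989 in treated maturation (639 with all dogs) and from 0 to 20 in control day 10 over 5. For treatment on day 20 they ran from 0 to 1016, and in control maturation from 2166 to 4133 (2774 with all dogs). With days 5, 10 and 30 only, treated maturation had 17 and control maturation 21 (1124 and 1721 over all genes). Without the 3 libraries that stood apart, treated day 30 over 20 had 9 (399 over all genes). The labels tie no replicate number to a shared dog or batch, and in no comparison did every same-numbered pair of libraries correlate over 0.1 (3 of 8 pairs in treated maturation, 1 of 3 for treatment on day 5, and 2 of 3 in treated day 10 over 5, where the pairs ran from 0.0657 to 0.674), so the numbers were not taken as pairs. As a replicate block, they gave 19 in control maturation, 1 (COL6A5, lower) for treatment on day 5, 6 in treated maturation and 0 in the other comparisons fitted. Over all genes the block called 1806 in control maturation, 4 for treatment on day 5 and 383 in treated maturation. A block could not be fitted on day 10, where 1 number is shared. The cause of these differences was not tested. No member's direction that had passed reversed. Members with few reads, such as ADAMTS8 and COL9A2, have imprecise fold changes, and the depth of 12831896 to 22658950 reads limits them.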
